A study of Rattus norvegicus with 180 samples.

Results

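The muscle microRNAs rno-miR-1, rno-miR-133a, rno-miR-133a*, rno-miR-133b and rno-miR-206 were followed across 55 organs of the male Sprague-Dawley rat at 10 weeks of age. They were chosen by name and are 5 of the 717 miRNAs of the array design, which also carries the passenger arms miR-1*, miR-133b* and miR-206*. Each organ was taken from 3 rats (numbers 4, 5 and 6) that had been perfused with saline before collection. Liver, kidney, lung, heart atrium and heart interventricular septum were also taken from 3 rats without perfusion (numbers 1, 2 and 3), which gave 180 one-color arrays in 60 groups of 3. The rats were untreated otherwise, so that an organ of one rat was the sample and the rat the replicate. For 8 arrays the labels give both rat 5 and rat 6, and these include all 3 limb muscle arrays used here as rat 5. The study put 14 organs in its category of smooth or skeletal muscles. These were grouped here by label into heart (atrium and interventricular septum), limb muscle (femoris, gastrocnemial and soleus muscle), interseptum, tongue, esophagus, skin and 5 organs with smooth muscle (anterior stomach, glandular stomach, bladder, aorta and vein). For the interseptum the sources say only that it is muscle. The heart, the limb muscles, the interseptum, the tongue and the esophagus are called the 8 striated organs, and 41 organs had no muscle category.

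The miR-1 and miR-133 families are transcribed together from paired genes, and their precursors are cut into a guide arm and a passenger arm, which older names mark with an asterisk. miR-1 and miR-133 are known from both heart and skeletal muscle, where miR-1 is linked to differentiation and miR-133 to the proliferation of muscle precursors. miR-206 is known as a skeletal muscle miRNA linked to myogenic differentiation, to regenerating fibres and to the neuromuscular junction.

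The mature sequences are shown because shared seeds and close similarity between members bear on every comparison that follows. They were taken from RefSeq (GRCr8), which held all 5 members. Letters run from the 5′ end, and capitals mark the seed, bases 2 to 8. The first pair has the seed of miR-1, the next pair has the seed of miR-133, and the passenger arm of miR-133a has a seed of its own.
rno-miR-1: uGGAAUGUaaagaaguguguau
rno-miR-206: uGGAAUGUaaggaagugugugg
rno-miR-133a: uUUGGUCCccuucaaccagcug
rno-miR-133b: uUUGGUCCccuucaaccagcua
rno-miR-133a*: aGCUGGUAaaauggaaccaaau

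miR-1 and miR-206 differed at 3 of 22 positions counted from the 5′ end (A11G, A21G and U22G, with the base of miR-1 first). miR-133a and miR-133b differed at 1 position, the last base (G22A). The genes lay in 2 pairs. Mature miR-1 lay at chr18:2160339-2160360 and miR-133a at chr18:2157886-2157907, both on the minus strand, with 2368 bases between their hairpins and both within the span of the protein-coding gene Mib1. miR-206 lay at chr9:30590747-30590768 and miR-133b at chr9:30594629-30594650, both on the plus strand, with 3801 bases between the hairpins and both within the span of a long noncoding RNA gene. RefSeq also lists miR-1b (G17A against miR-1), from a gene on chromosome 3, which has no name of its own among the miRNAs of the array.

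Signals are background-corrected spot intensities, averaged over the 2 probe sequences of each member and scaled so that the arrays share one 75th percentile of the 37 miRNAs common to every array. A miRNA counted as detected where more than 50% of the spots for it exceeded the background well, and a floor of 10.8 was set before taking log2. Probe sequences differ in brightness, so levels were compared between organs for one miRNA and not between miRNAs. Within each member the 2 probe sequences followed each other closely over the arrays on which it was detected, with Pearson's r between 0.988 (miR-133a*) and 0.999 (miR-133a and miR-206), as a description. None of the miRNA spots was saturated. Whether the probes of miR-133a and miR-133b separate these 2 RNAs was not tested. On the 39 arrays with both detected, log2 miR-133a minus log2 miR-133b lay between -5.90 and -4.65, with an SD of 0.26.

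Limb muscle gave the highest signals of all 5 miRNAs, and which limb muscle came first differed between them. For rno-miR-1 the signals in rats 4, 5 and 6 were 72141, 61861 and 70215 in the femoris muscle, 48184, 67983 and 54598 in the gastrocnemial muscle and 37675, 18587 and 20837 in the soleus muscle. The interseptum gave 44611, 30316 and 40291, which lay between those of the gastrocnemial and the soleus muscle by mean. The heart atrium gave 14407, 15996 and 13989 and the interventricular septum 13094, 14241 and 13827, so that the 2 parts of the heart overlapped. The tongue followed with 10475, 10224 and 11448, and the esophagus with 7728, 8583 and 3195.

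The same order of organs was found for miR-133a and miR-133b. In the order of femoris, gastrocnemial, interseptum, soleus, atrium, septum, tongue and esophagus, the mean signals of rno-miR-133b were 84187 ± 6819 (SD, n = 3, as for the values that follow), 78629 ± 7140, 62958 ± 7592, 42998 ± 12197, 25105 ± 1558, 24074 ± 1759, 19558 ± 383 and 15165 ± 6844. Those of rno-miR-133a were 1904 ± 399, 1808 ± 451, 1457 ± 387, 994 ± 353, 540.0 ± 56.3, 510.2 ± 73.3, 385 ± 72.6 and 282 ± 141. The passenger arm rno-miR-133a* had means of 2388 ± 247, 2166 ± 430, 1718 ± 352, 1111 ± 298, 510.3 ± 39.7, 481 ± 82.7, 486 ± 17.5 and 315 ± 134, with the tongue ahead of the septum by less than the spread between rats.

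rno-miR-206 ordered the organs differently. It was highest in the soleus muscle, with signals of 6204, 8666 and 10927 in rats 4, 5 and 6. The gastrocnemial muscle gave 5056, 3730 and 8316, the femoris muscle 4203, 4799 and 6991 and the interseptum 3993, 4481 and 5945. The esophagus (2593, 2662 and 1081) and the tongue (1575, 1810 and 1993) followed and overlapped. In the heart it was detected on none of the 12 arrays of either condition, and its scaled signal there did not exceed 0.394 in perfused rats.

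Between neighbours in the order of 55 organs most groups overlapped. For miR-1 only 4 of the 54 steps separated all 3 rats of one organ from all 3 of the next, namely those below the gastrocnemial muscle, the soleus muscle, the interventricular septum and the tongue. For miR-133b the number was also 4, and for miR-133a, miR-133a* and miR-206 it was 2 each. For miR-133a and miR-133a* one of these steps lay between the soleus muscle and the heart atrium.

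**Figure D1:**
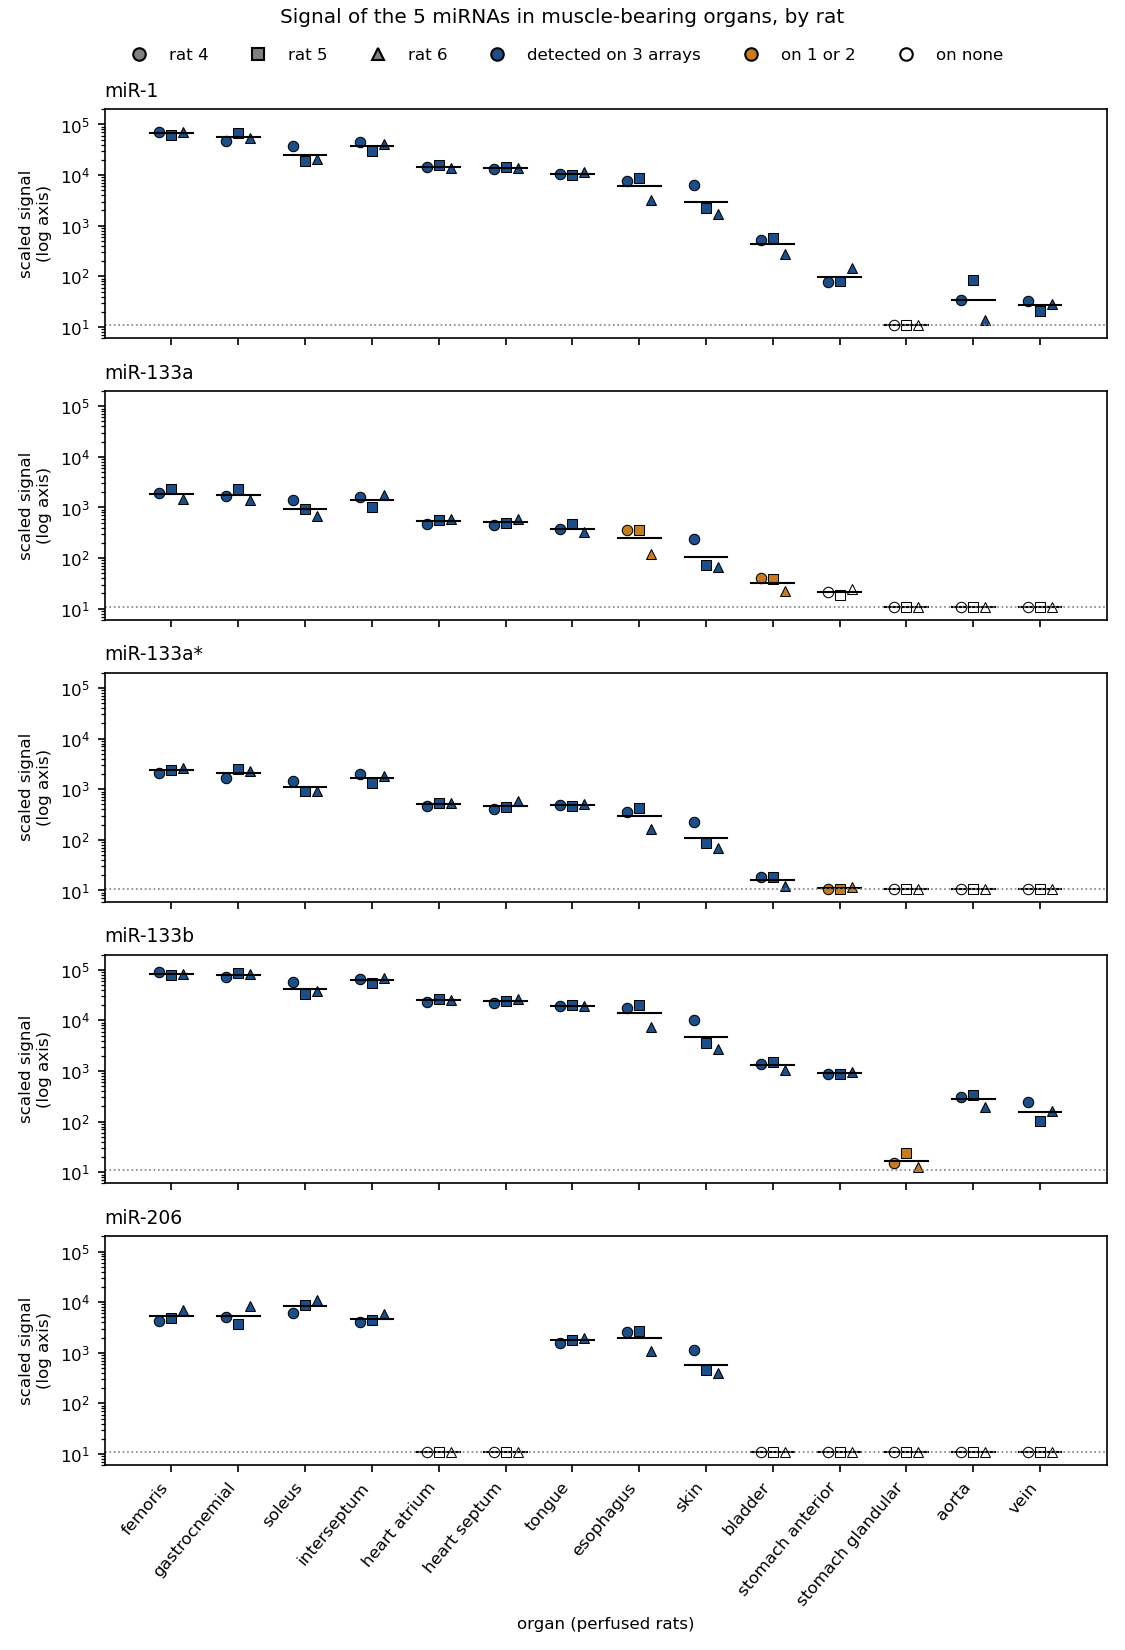
Scaled signal (log axis) of each miRNA in the 14 organs of the muscle category in perfused rats, with one symbol for each rat and a line at the mean of the log2 values. Colors give on how many of the 3 arrays of an organ the miRNA was detected, and the dotted line is the floor of 10.8. miR-206 lies at the floor in both parts of the heart, where miR-1 lies between 13094 and 15996.

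The 5 miRNAs together made up much of the signal of a muscle array. Their summed share of all miRNA signal was 67.4% ± 1.98 (SD, n = 3) in the femoris muscle, 62.9% ± 4.33 in the gastrocnemial muscle, 54.6% ± 2.45 in the interseptum and 50.4% ± 3.36 in the soleus muscle. It was 35.2% ± 0.536 in the heart atrium, 35.2% ± 0.592 in the interventricular septum and 32.9% ± 1.88 in the tongue. The esophagus ranged from 13.1% to 31.5% and the skin from 5.67% to 19.6%. In the organs with smooth muscle the share did not exceed 2.05%, which was reached in the bladder. These shares are of probe brightness and not of RNA molecules.

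**Figure D2:**
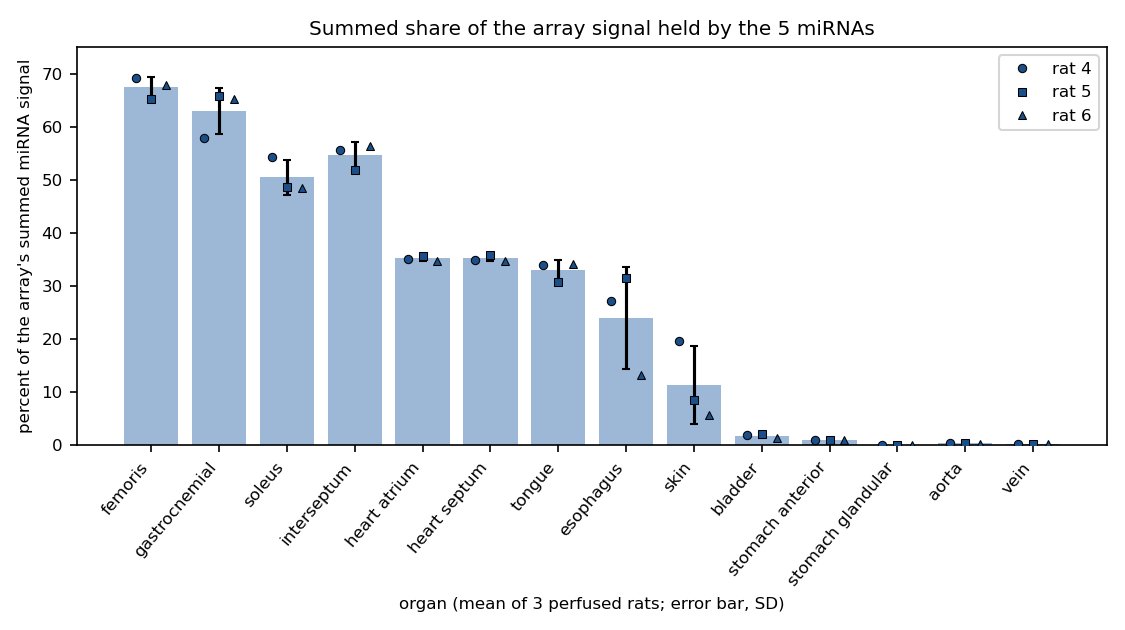
Summed share of the array's miRNA signal held by the 5 miRNAs (percent, axis from 0) in the 14 organs of the muscle category. Bars are means of 3 perfused rats, error bars are SD and symbols are rats. The share lies above 48% on each limb muscle and interseptum array and at 35.2% on average in each part of the heart.

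Against the other 47 organs, the 8 striated organs had higher levels of all 5 miRNAs (limma over all perfused arrays, Benjamini-Hochberg adjusted p at most 2.13e-55). In this comparison 91% of the 345 miRNAs tested were called, 18.3% higher and 72.8% lower. The log2 difference was 9.36 ± 0.290 (SE) for miR-1, 8.51 ± 0.274 for miR-133b, 6.06 ± 0.121 for miR-133a*, 5.79 ± 0.128 for miR-133a and 5.77 ± 0.187 for miR-206, against a median of -0.32 over all miRNAs. The split of all calls, 63 higher and 251 lower, depends on the scaling and was 128 and 176 with the 75th percentile over all miRNAs, 103 and 196 under quantile normalization and 122 and 191 in the authors' normalized table. These differences rest on the floor in the many organs without the miRNA, and that of miR-206 averages over the heart, where it was not detected. The groups overlapped for each member, because a skin array reached 6520 for miR-1 while an esophagus array had 3195. Marker lists moved in the same comparison. Both endothelial markers (median log2 difference 1.23), both other striated muscle markers (2.59), the 1 heart and slow muscle marker tested, miR-499 (2.67), and all 3 heart muscle markers tested (0.26) were higher in the striated organs. The call of the heart muscle markers rests on the heart. Their summed signal was 199 to 303 there and at most 16.9 in the other striated organs. All 6 epithelial markers (-2.83), all 3 squamous markers (-0.43), 3 of 4 leukocyte markers and the liver marker miR-122 (-0.29) were lower. The remaining leukocyte marker was higher. Of 2 blood markers 1 was higher and 1 lower, and of 5 smooth muscle markers tested 1 was higher and 2 were lower. The part of other cell types was not tested. In bulk organs fewer cells of a type and less RNA per cell cannot be told apart.

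Between the heart and limb muscle, miR-206 separated the organs most. It was at least 542-fold lower in the heart than in limb muscle. In the limma fit over 39 arrays of 13 muscle-bearing organs, miR-206 lay at the floor on all 6 heart arrays. Its p-value there is set by the floor and is not given. This bound compares the mean of 9 limb muscle arrays with a limit on each of the 6 heart arrays, where miR-206 was not detected. The limit was the lowest signal that was well above background on that array, or the floor where this signal lay below the floor. For the tongue and the esophagus the bounds over the heart were 157-fold and 172-fold. miR-206 was thus detected on all arrays of the limb muscles, the interseptum, the tongue and the esophagus and on none of the heart. The signal of miR-133b, from the neighbouring gene, ranged from 22410 to 26566 on the perfused heart arrays. Whether its probes separate it from miR-133a, which differs only in the last base, was not tested.

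The other 4 miRNAs were present in the heart and were lower there than in limb muscle. For miR-1 the 6 heart arrays ranged from 13094 to 15996 (median 14115) and the 9 limb muscle arrays from 18587 to 72141 (median 54598). The log2 difference was -1.67 ± 0.267 (SE) for miR-1, -1.49 ± 0.198 for miR-133a, -1.84 ± 0.148 for miR-133a* and -1.41 ± 0.186 for miR-133b (adjusted p at most 3.48e-06). Of the 211 miRNAs tested 50.7% were called in this comparison, 17.1% higher and 33.6% lower. Heart and limb muscle arrays did not overlap for any of the 5, nor for 30.3% of all miRNAs tested (8.53% with the heart higher and 21.8% with it lower). In the fit of all perfused arrays miR-1 (adjusted p = 0.0517) and miR-133b (0.0961) no longer passed. Under quantile normalization the difference of both was 0 by construction, as each held the same top rank on all these arrays.

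The size of this difference depends on the scaling. With the 75th percentile over all miRNAs the log2 differences of miR-1, miR-133a, miR-133a* and miR-133b were -0.67, -0.49, -0.84 and -0.41, and miR-133b no longer passed (adjusted p = 0.0603). That scaling moved the median difference of all miRNAs from -0.08 to 0.48, and against this median miR-1 was at -1.16 and miR-133b at -0.89. It also turned the split of calls, from 36 higher and 71 lower to 106 higher and 37 lower. Shares of signal do not change with the scaling factor, but they are relative to the array's summed signal, of which the members hold much. miR-1 held 26.8% to 29.3% of the signal in the femoris muscle and 21.9% to 27.8% in the gastrocnemial muscle. It held 14.1% to 19.8% in the soleus muscle and 11.8% to 13.1% in the heart. No slide held both heart and limb muscle. Within the second scan day the log2 difference of miR-1 was -1.63 (2 heart and 6 limb muscle arrays), and within the third it was also -1.63 (2 and 3 arrays). On these 2 days it was -1.68 and -0.94 for miR-133a, -1.83 and -1.70 for miR-133a* and -1.39 and -1.30 for miR-133b.

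The known markers of these muscles were read on the same arrays. miR-208, from an intron of a cardiac myosin gene, gave 16.2 to 30.4 in the perfused heart and was detected on no array of the limb muscles, the interseptum, the tongue or the esophagus. Its second version on the array had mean log2 signals of 7.88 in the atrium and 7.69 in the septum, with limb muscle at the floor. miR-499, from an intron of a slow myosin gene, gave 445 to 726 in the heart, 214 to 557 in the soleus muscle, 293 to 402 in the interseptum and 12.2 to 109 in the femoris and gastrocnemial muscles. These marker levels matched the labels of the heart and of the limb muscles. In the heart minus limb muscle comparison all 3 heart muscle markers tested were higher, with a median log2 difference of 1.06. These were detected on only 11 to 13 of the 180 arrays and lay at the floor in limb muscle. They entered the test through their detection in the heart, so their direction was set in advance and lends no support. Other marker lists moved as well. Both endothelial markers (median 0.90) and 3 of 5 smooth muscle markers (median 0.56) were higher in the heart, while the 2 other striated muscle markers (median -2.09), the 1 blood marker tested (-1.52) and 1 of 3 leukocyte markers were lower. The part of other cell types in the differences of the members was not tested.

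Differences between members within an array are the same under any single scaling factor per array, as long as both lie above the floor, and were compared between 6 heart and 9 limb muscle arrays with an exact two-sided permutation test over 10 pairs. The smallest p this test can give is 0.0004. The 15 arrays come from the same 3 rats, and the test treats organs of one rat as separate. Of the pairs, 7 had an adjusted p under 0.05, and 4 of them involve miR-206 at the floor in the heart. miR-133a minus miR-133a*, the 2 arms of one hairpin, lay between 0.04 and 0.16 in the heart and was 0.35 lower on average in limb muscle (exact p = 0.0004, adjusted p = 0.000666). In limb muscle this difference was -0.83, -0.71 and -0.46 on the 3 arrays of rat 6, which shared a slide without heart arrays, and between -0.12 and 0.02 on the 6 others. Without rat 6 the difference between the organs was 0.14 (exact permutation test, adjusted p = 0.0136). The part of that slide in the result was not tested. miR-133a* minus miR-133b was 0.44 lower in the heart (exact p = 0.0004, adjusted p = 0.000666), and miR-1 minus miR-133b was 0.27 lower (exact p = 0.0196, adjusted p = 0.028). With any 1 rat left out, miR-1 minus miR-133b no longer passed (exact permutation test, adjusted p between 0.0544 and 0.143). Quantile normalization gives miR-1 and miR-133b the same value on all these arrays by construction, as each held the same top rank. Under it miR-1 minus miR-133b was 0 and no longer passed. miR-1 minus miR-133a went from -0.18, which did not pass, to 1.12, which did (exact permutation test, adjusted p = 0.0005). That 1.12 holds only the difference of miR-133a.

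The heart atrium and the interventricular septum overlapped in their levels of the 4 miRNAs found in the heart. The log2 differences, atrium minus septum, were 0.11 ± 0.413 (SE) for miR-1, 0.09 ± 0.306 for miR-133a, 0.10 ± 0.229 for miR-133a* and 0.06 ± 0.289 for miR-133b (limma adjusted p = 1 for each). None of the 211 miRNAs was called in this comparison (0%), and 1 had an unadjusted p under 0.05.

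Among limb muscles the soleus, a slow muscle, stood apart from the femoris and gastrocnemial muscles. It had lower miR-1, miR-133a, miR-133a* and miR-133b and higher miR-206. For miR-1 the 3 soleus arrays (18587 to 37675) lay below the 6 others (48184 to 72141), and for miR-133b they lay at 33821 to 56840 against 70632 to 92022. For miR-133a they lay at 686 to 1379 against 1418 to 2302, and for miR-133a* at 937 to 1455 against 1682 to 2629, also without overlap. For miR-206 they lay at 6204 to 10927 against 3730 to 8316, so that the groups overlapped. Of the 211 miRNAs tested 18% did not overlap, 17.1% with all soleus arrays below the 6 others and 0.948% with all above them.

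The log2 differences, soleus minus the 2 others, were -1.34 ± 0.358 (SE) for miR-1 (limma adjusted p = 0.0052), -0.93 ± 0.265 for miR-133a (0.00799), -1.05 ± 0.199 for miR-133a* (0.000189), -0.95 ± 0.250 for miR-133b (0.00448) and 0.66 ± 0.220 for miR-206 (0.022). All 5 passed, where 34.1% of the 211 miRNAs did, 6.16% higher and 28% lower. miR-499 was higher in the soleus by 3.07 ± 0.421 on the log2 scale (adjusted p = 3.17e-06). Both other striated muscle markers, miR-378 and miR-378*, were lower there, with a median log2 difference of -1.06, and their relation to the differences of the members was not tested. The direction of the members' differences was the same within each of the 3 slides that held soleus and another limb muscle. For miR-1 it was -0.35 on the slide with rat 4, -1.57 on that with rat 6 and -1.80 on that with rat 5, and for miR-206 it was 0.30, 0.52 and 1.03.

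This comparison leaned on few arrays. Without the 8 arrays that the labels give to both rat 5 and rat 6, 1 of the 5 miRNAs passed. The miR-206 call was also lost with normexp background correction (adjusted p = 0.0945), with no filter on dim miRNAs (0.0766), with the limb muscle arrays alone in the fit (0.0923) and with all perfused arrays in it (0.718). That last fit also ended the calls of miR-1 (0.458), miR-133a (0.107) and miR-133b (0.725). Quantile normalization set miR-1 and miR-133b to 0 by construction, and in the table of the authors miR-133a (limma adjusted p = 0.0977) and miR-133b (0.079) did not pass. Without rat 5 none of the 5 passed (adjusted p between 0.0516 and 0.376), with log2 differences of -1.11 for miR-1 and 0.47 for miR-206. With the 75th percentile over all miRNAs only miR-206 passed, at 1.18, and miR-1 was at -0.82 (adjusted p = 0.150). That scaling moved the median of all miRNAs from -0.13 to 0.07 and the calls from 13 higher and 59 lower to 37 higher and 4 lower. Within an array, miR-1 minus miR-206 was 1.54 ± 0.920 (SD, n = 3) in the soleus and 3.55 ± 0.559 (n = 6) in the 2 others, with no overlap. The exact two-sided permutation p was 0.0238, the smallest that 3 against 6 arrays can give, and 0.0595 after adjustment over the 10 pairs. None of the 10 pairs passed in this design.

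The interseptum was not separated from limb muscle by any of the 5 miRNAs. Its arrays lay within the range of the limb muscle arrays for each of them. The log2 differences were -0.26 ± 0.338 (SE) for miR-1, -0.05 ± 0.250 for miR-133a, -0.06 ± 0.187 for miR-133a*, -0.06 ± 0.236 for miR-133b and -0.38 ± 0.208 for miR-206 (limma adjusted p between 0.24 and 1). In this comparison 10.9% of the 211 miRNAs were called, 8.06% higher and 2.84% lower (17 and 6 miRNAs, against 4 and 6 with the 75th percentile over all miRNAs). One of the 23 called here was miR-499, which was higher in the interseptum by 2.19 ± 0.397 (adjusted p = 0.000245). miR-206 was on all 3 interseptum arrays, and miR-208 was on none.

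The tongue and the esophagus had all 5 miRNAs at lower levels than limb muscle, with no overlap between arrays. Of all 211 miRNAs tested, 29.4% did not overlap between tongue and limb muscle (10.4% higher and 19% lower in the tongue) and 46.4% between esophagus and limb muscle (18.5% higher and 28% lower in the esophagus). The log2 differences of the tongue were -2.08 ± 0.338 (SE) for miR-1, -1.95 ± 0.250 for miR-133a, -1.86 ± 0.187 for miR-133a*, -1.74 ± 0.236 for miR-133b and -1.79 ± 0.208 for miR-206 (limma adjusted p at most 6.01e-06, with 52.1% of 211 miRNAs called, 16.6% higher and 35.5% lower). Those of the esophagus were -2.93 ± 0.338, -2.55 ± 0.250, -2.60 ± 0.187, -2.23 ± 0.236 and -1.66 ± 0.208 in the same order (adjusted p at most 3.98e-08, with 64% called, 26.1% higher and 37.9% lower). Both comparisons used the same limb muscle arrays. For the tongue, miR-1 and miR-133b no longer passed in the fit of all perfused arrays (adjusted p = 0.0579 and 0.111). Nor did they under quantile normalization, which set both to 0 by construction. For the esophagus miR-133b no longer passed under quantile normalization (adjusted p = 0.0576).

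Markers of squamous epithelium moved the other way in these organs. The summed signal of the 3 squamous markers on the array (miR-203, miR-205 and its second version) was 2485 to 3602 in the tongue and 3361 to 12247 in the esophagus, against at most 31.0 in limb muscle, and all 3 were called higher in both organs. Of the 6 epithelial markers, 5 were higher in the tongue and 6 in the esophagus. Other lists moved the same way as the members. The 2 other striated muscle markers were lower in the tongue (median log2 difference -0.90) and in the esophagus (-1.73), and miR-499 was lower in both (-2.82 and -2.86). In the esophagus both endothelial markers (median -1.50) and 2 of 3 leukocyte markers were lower, and in the tongue the 1 blood marker tested (-1.55) and 1 of 3 leukocyte markers. Within the esophagus, rat 6 had the lowest signal of each of the 5 miRNAs and the highest miR-203, at 7927, where rat 5 had 2012. The part of epithelium and of these other cell types in the lower levels was not tested. Without rat 6 the log2 differences of the esophagus were -2.52 for miR-1 and -0.99 for miR-206, and all 5 passed.

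**Figure D3:**
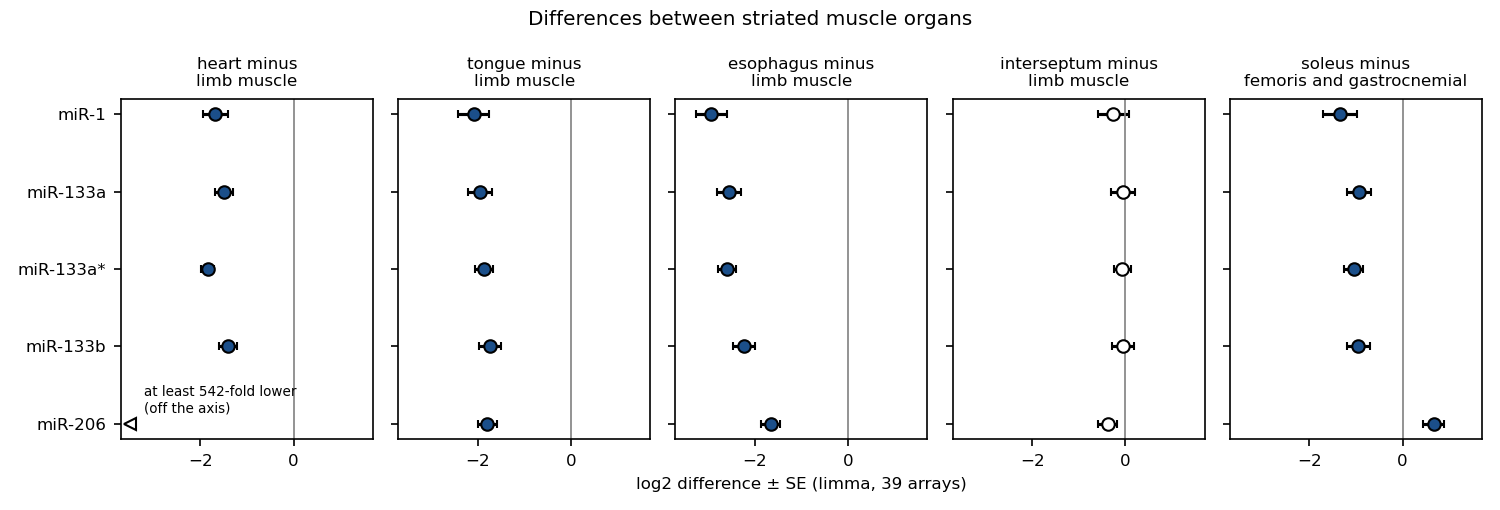
Log2 differences ± SE from the limma fit over 39 arrays for 5 comparisons between striated muscle organs. Filled circles have an adjusted p under 0.05, and the triangle marks miR-206 in the heart, at least 542-fold lower and off the axis. The 4 other miRNAs lie on the same side as each other in every panel, and miR-206 lies opposite to them in the soleus muscle, at 0.66.

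The skin, which the study placed in its muscle category, carried all 5 miRNAs at unequal levels. miR-1 was 6520, 2227 and 1679 in rats 4, 5 and 6, miR-133b was 10262, 3540 and 2688, and miR-206 was 1109, 457 and 393. Rat 4 was the highest for each of the 5. In log2 units miR-206 minus miR-1 was -2.56, -2.28 and -2.10 on these arrays, within the range of -4.19 to -0.93 over the limb muscle and interseptum arrays. That range is wide and also holds the tongue and esophagus arrays (-2.73 to -1.56). The source of the 5 miRNAs in the skin was not tested.

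Organs with smooth muscle had low levels, and miR-133b was the most widely found. Its signals were 1404, 1538 and 1049 in the bladder, 860, 866 and 974 in the anterior stomach, 309, 341 and 199 in the aorta and 239, 101 and 160 in the vein. miR-1 was 528, 565 and 281 in the bladder, 78.4, 79.9 and 144 in the anterior stomach, 34.6, 86.6 and 13.6 in the aorta and 32.6, 20.9 and 28.3 in the vein. The bladder was the highest of these organs for both. miR-206 was detected in none of the 5, and limb muscle had at least 451-fold to 570-fold more of it.

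The glandular stomach differed from the other organs of this set. miR-1 was not detected there, and the bladder had at least 31.9-fold more. miR-133b was on 1 of 3 arrays. Its smooth muscle markers were also low, with a summed signal of 592 to 1037 over 6 markers, against 20816 to 27088 in the bladder and 23420 to 29923 in the anterior stomach.

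Compared with the 41 organs without a muscle category, the organs with smooth muscle had higher miR-133b (log2 difference 1.60 ± 0.339 SE, limma adjusted p = 9.95e-06) and higher miR-1 (0.94 ± 0.359, adjusted p = 0.0115). miR-206 lay at the floor on all 15 smooth muscle arrays, so that its fitted -0.56 ± 0.232 (adjusted p = 0.019) is set by the floor and is no measured difference. miR-133a (0.26 ± 0.158, adjusted p = 0.105) and miR-133a* (-0.08 ± 0.150, adjusted p = 0.591) did not pass, and both depend on the processing. miR-133a passed as higher with the 75th percentile over all miRNAs (0.82, adjusted p = 7.61e-07), under quantile normalization (0.91) and in the table of the authors (0.88), and as lower under normexp background correction (-0.58, adjusted p = 4.40e-05). miR-133a* passed as higher under quantile normalization (0.36) and in the table of the authors (0.42), and as lower under normexp (-0.75, adjusted p = 2.27e-07). Of the 345 miRNAs tested 91.6% were called, 13.3% higher and 78.3% lower, so that calls were no more frequent among the 5 than over the array. The split of all calls, 46 higher and 270 lower, depends on the scaling and was 114 and 152 with the 75th percentile over all miRNAs and 97 and 163 under quantile normalization.

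The size of the miR-1 and miR-133b differences varied with the organs included and with the treatment of low signals. For miR-1 the log2 difference was 0.18 without the bladder (adjusted p = 0.69), 0.72 without the anterior stomach (0.0786), 0.32 with a floor 4 times as high (0.298) and -0.03 under normexp (0.894), and it did not pass without rat 5 (limma adjusted p = 0.0612). It was 1.85 with the 75th percentile over all miRNAs (adjusted p = 1.27e-06) and 1.51 without the glandular stomach (adjusted p = 0.000279), the organ with low smooth muscle markers. For miR-133b it was 0.99 without the bladder (adjusted p = 0.0118), 2.56 without the glandular stomach (adjusted p = 7.30e-10) and 2.68 with the 75th percentile over all miRNAs (adjusted p = 3.04e-12). Without the glandular stomach miR-133a passed at 0.39 (adjusted p = 0.0289), as it did without the aorta or the vein.

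Markers of several cell types moved in the same comparison. All 5 smooth muscle markers tested (median log2 difference 0.40), all 3 squamous markers (1.00) and the 2 other striated muscle markers (0.77) were higher in the organs with smooth muscle. All 6 epithelial markers (-0.67), both endothelial markers (-0.47) and all 4 leukocyte markers (-1.51) were lower. Also lower were miR-499 (-0.36), 1 of 2 blood markers and the liver marker miR-122 (-0.33). Their part in the differences of the members was not tested.

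Outside the muscle category the 5 miRNAs differed strongly between the rats in several organs. miR-1 was 4386, 2123 and 15.1 in the parotid gland of rats 4, 5 and 6, 13.1, 3895 and 18.0 in the thyroid gland and 1989, 4.98 and 4.53 in the optic nerve. It was 956, 355 and 13.7 in the Harderian gland, 37.6, 24.1 and 599 in the trachea and 397, 595 and 52.2 in brown adipose tissue. In these 6 organs the highest miR-1 signal was at least 10 times the lowest after the floor. A mean over 3 rats does not describe such an organ.

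miR-206 and miR-133b rose on the same arrays. On the parotid array of rat 4 they were 526 and 7062, on the thyroid array of rat 5 they were 325 and 7221, and on the optic nerve array of rat 4 they were 127 and 2798. In the thyroid glands of rats 4 and 6 miR-206 was 0.738 and 0.166.

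Over all 180 arrays, 58 had miR-1 detected at a signal of 100 or more, a limit chosen after the values were seen. Of these, 21 came from organs without a muscle category, and 15 of the 21 also had miR-206. On those 15 arrays log2 miR-206 minus log2 miR-1 ranged from -3.97 to -2.13 (median -2.97), against -4.19 to -0.93 (median -3.01) on the limb muscle and interseptum arrays. The other 6 came from the seminal vesicle (3 arrays, miR-1 at 253, 471 and 251), the ileum, the eyeball and the part of the prostate outside the ventral lobe (1 array each). Over all 21 arrays log2 miR-133b minus log2 miR-1 ranged from 0.49 to 2.01 (median 1.23). On the limb muscle and interseptum arrays that difference was smaller, from 0.21 to 0.88 (median 0.56). On 8 of the 21 arrays the slide also held a striated organ. Whether muscle beside these organs was collected with them was not tested.

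**Figure D4:**
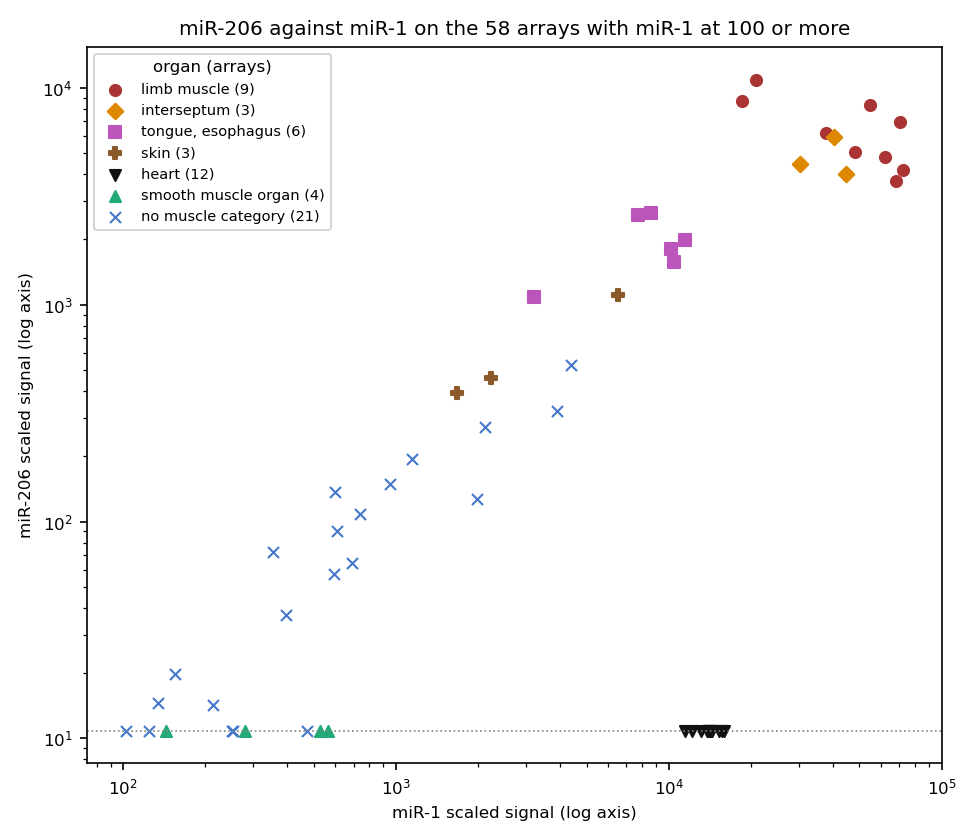
miR-206 against miR-1 (scaled signal, both axes log) on the 58 arrays with miR-1 detected at 100 or more, by kind of organ, with the floor dotted. The 12 heart arrays and the 4 smooth muscle arrays lie at the floor for miR-206, and miR-206 was detected on 15 of the 21 arrays of organs without a muscle category.

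In the cerebellum rno-miR-206 was detected on 3 of 3 arrays, at signals from 75.9 (rat 6) to 86.7 (rat 4). miR-1 was detected there on 1 array, and its signals of 8.67, 3.56 and 5.12 all lay below the floor. miR-133b was on all 3 arrays, at 95.7, 62.6 and 58.3, and miR-133a and miR-133a* on none. The 3 cerebellum arrays overlapped with no limb muscle array for miR-206. In the pancreas the scaled miR-206 signal was 160 to 183 but not above background on any array, and it is not counted as found.

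Over the 55 perfused organs miR-133b was the most widely detected, on all 3 arrays of 39 organs and on none of 5. miR-1 was on all 3 arrays of 23 organs and on none of 17. miR-206 was on all 3 arrays of 8 organs and on none of 35, miR-133a on all 3 of 8 and none of 40, and miR-133a* on all 3 of 10 and none of 37. The passenger arms miR-133b* and miR-206* were detected on 0 of 180 arrays and miR-1* on 1.

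**Figure D5:**
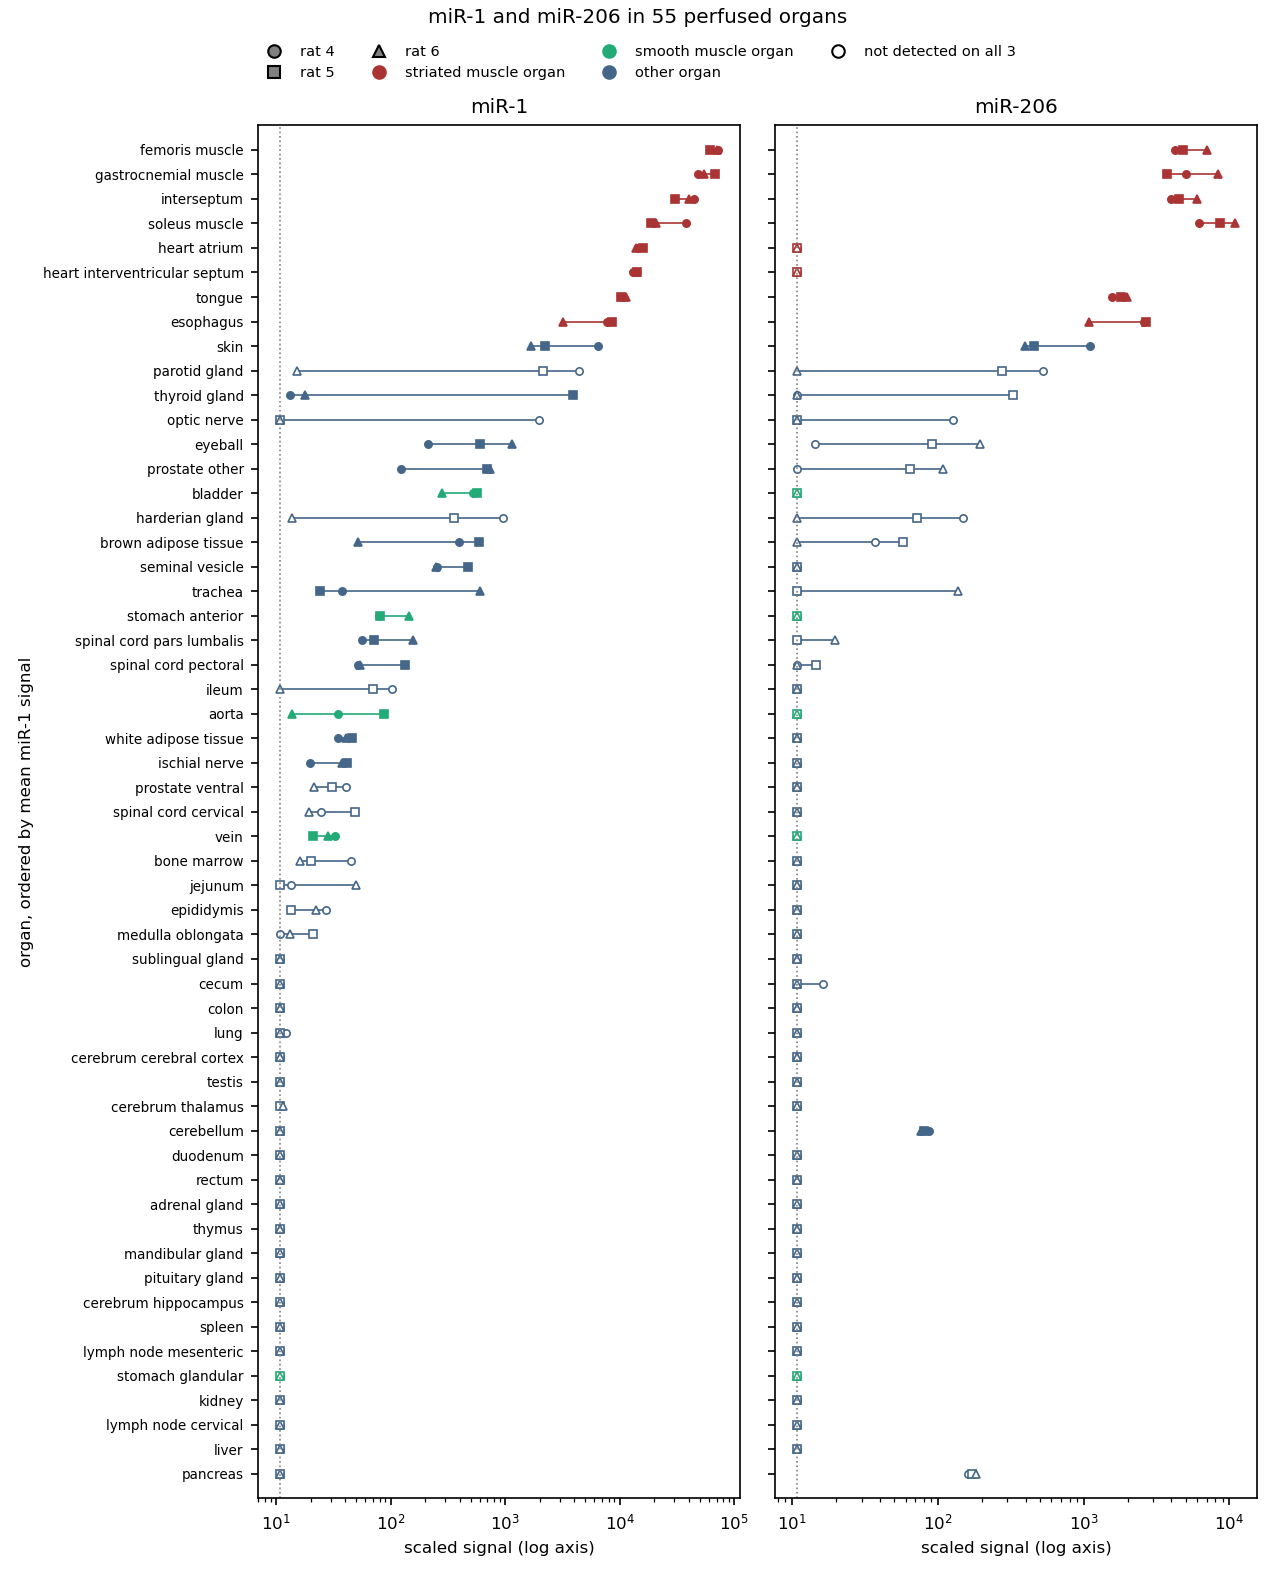
Scaled signal (log axis) of miR-1 and miR-206 in 55 organs of perfused rats, ordered by the mean miR-1 signal, with one symbol for each rat and a line over their range. Open symbols mark organs in which the miRNA was not detected on all 3 arrays. The 8 striated organs lead for miR-1, and the cerebellum has miR-206 at 75.9 to 86.7 with miR-1 at the floor in all 3 rats.

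The members resembled each other across organs to different degrees. Over the log2 means of 55 organs, Pearson's r was 0.993 between miR-133a and miR-133a*, 0.961 between miR-1 and miR-133b and 0.956 between miR-1 and miR-133a. Between miR-206 and its genomic neighbour miR-133b it was 0.738, and 0.833 over the 53 organs other than the heart. Between miR-206 and miR-1, which share a seed, it was 0.790, and 0.899 without the heart. These values describe organs that share rats, slides and a floor, and no test was made of them. Whether the miR-133b signal is separate from that of miR-133a was not tested either.

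Among 345 miRNAs that some organ showed in all 3 rats, miR-675* was the most like each of the 5 members, other than the members themselves, with r from 0.676 (miR-133b) to 0.833 (miR-206). miR-675* comes from the first exon of the imprinted noncoding RNA H19. Its signal was 117 to 136 in the femoris muscle, 85.0 to 152 in the gastrocnemial muscle, 60.2 to 76.6 in the interseptum, 16.3 to 57.0 in the soleus muscle and 19.1 to 27.6 in the tongue, and it was not detected in the heart. In the esophagus its signal was 7.59 to 33.7, with detection on 2 of the 3 arrays. It was found on 2 of the 141 arrays of other perfused organs. The next places were taken by miR-22 (0.660) and miR-499 (0.627) for miR-1, by miR-22 (0.659) and miR-499 (0.651) for miR-133a and by miR-378* (0.666) and miR-22 (0.664) for miR-133a*. For miR-133b they were miR-24 and miR-22 (0.621 each), and for miR-206 miR-378* (0.605) and miR-299 (0.547).

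Perfused and non-perfused rats overlapped for the 4 miRNAs found in the heart, and no difference passed. In the atrium miR-1 was 14407, 15996 and 13989 in perfused rats and 12158, 15291 and 15666 in the others, and in the septum 13094, 14241 and 13827 against 11428, 13874 and 14178. The log2 differences, perfused minus not perfused, were 0.05 ± 0.169 (SE) and 0.07 ± 0.169 for miR-1. For the other 3 they ranged from 0.00 ± 0.224 (miR-133b) to 0.15 ± 0.106 (miR-133a*) in the atrium and from 0.04 ± 0.224 (miR-133b) to 0.12 ± 0.106 (miR-133a*) in the septum (limma adjusted p = 1 for each). Of 191 miRNAs tested 0% were called in either part, with 4 and 3 at an unadjusted p under 0.05. In the table of the authors, 1 miRNA was called in the atrium and 3 in the septum, none of them a member. miR-206 was not detected in either condition and was not tested. The blood marker miR-451 had a log2 difference of -3.30 in the atrium (limma adjusted p = 0.358) and -3.38 in the septum (0.292), which did not pass. All arrays of non-perfused rats were scanned on the first day and the perfused ones over 3 days, and none of the 4 miRNAs passed with scan day as a block. No difference in the effect of perfusion between the 5 organs passed for any of the 4 (limma interaction adjusted p = 1, with 0% of 191 called and 6 at an unadjusted p under 0.05, miR-1 among them at 0.0414).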

How the data were processed

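Total RNA was labeled with Cy3 and hybridized to one-color Agilent miRNA arrays. The authors deposited scanner output with background-corrected spot intensities (Agilent Feature Extraction 10.7.3, per the submitters' processing notes) and a table of normalized signal intensities. The members and marker lists were chosen with earlier results of these data known. Outlier spots were dropped, spots and then probe sequences averaged, arrays scaled to the 75th percentile of the 37 miRNAs common to every array, floored at 10.8 and taken to log2. Tests used limma 3.58.1 in R 4.3.3 with 1 term per organ (39 muscle arrays, all perfused arrays or 30 arrays of the perfusion comparison), miRNAs that some group showed in all 3 rats and Benjamini-Hochberg adjustment over all of them, with exact permutation tests in scipy 1.17.1. Both were tested on simulated data. The miRNAs named were the members, the 3 most correlated with each, and markers. The 180 arrays lay on 23 slides, with 86 to 244 miRNAs detected each. Their number limits the precision. The rat number pairs organs of the same animal (per the labels). Same-animal residuals had a mean correlation of 0.0958, and those of different rats -0.0482. For 8 arrays of rat 5 the labels give a second number. Normexp used the median spot signal. Alternatives covered scaling, floor, background, filters, slide, scan day, rat and the samples fitted.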

Additional observations from a re-analysis of the deposited data

How the results depend on the processing

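Scaling and the arrays in the fit moved counts most. Under quantile normalization 3 of the 5 miRNAs passed between heart and limb muscle, 3 between soleus and the 2 other limb muscles, 3 between tongue and limb muscle and 5 between smooth muscle organs and organs without a muscle category, where this scaling called 56.9%, 19.0%, 49.3% and 75.4% of all miRNAs tested. miR-133b and miR-1 were the top 2 miRNAs on all striated arrays other than those of the esophagus, so this scaling sets their differences there to 0 by construction. In the fit of all perfused arrays, which share one estimate of the spread, the counts were 3 for heart, 1 for soleus and 3 for tongue, with miR-1 (adjusted p = 0.0517) and miR-133b (0.0961) lost for heart. For soleus, 1 passed with the 75th percentile over all miRNAs, 3 in the authors' normalized table and 1 without the 8 arrays of 2 rat numbers. For smooth muscle organs, 5 passed in the authors' table and 1 with a floor 4 times as high. Leaving out 1 rat gave 0 (without rat 5) to 5 for soleus, 1 (without rat 5) to 3 for smooth muscle organs and 0 to 1 (without rat 2) of the 191 miRNAs for the perfusion interaction. For the within-array pairs of heart and limb muscle it left 6 to 7 passing, with miR-1 minus miR-133b lost each time. The causes were not tested. With the rat as a replicate block, which pairs organs of one animal, 5 miRNAs passed for heart, soleus, tongue, esophagus and striated organs, 3 for smooth muscle organs and 0 for interseptum, atrium minus septum and perfusion, and no call of the report changed.

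The sign of some log2 differences turned. For atrium minus septum these were miR-1, miR-133a, miR-133a* and miR-133b at -0.036, -0.057, -0.048 and -0.082 with the 75th percentile over all miRNAs and -0.033, -0.053, -0.044 and -0.079 in the authors' table, and miR-133a* at -0.021 under quantile normalization. For interseptum they were miR-133a (0.058) and miR-133b (0.048) with scan day as a block and miR-133a (0.051) without the 8 arrays. For smooth muscle organs they were miR-1 (-0.030, a call at 0.94 in the report) and miR-133a (-0.58, which passed) under normexp, miR-133a with the higher floor (-0.052) and without the bladder (-0.0062), and miR-133a* at 0.23 (75th percentile over all miRNAs), 0.36 (quantile) and 0.42 (authors' table). For perfusion in the atrium they were miR-133a (-0.035) and miR-133b (0.076) with scan day, and miR-133b in the authors' table (0.027) and with slide as a block (0.017). Within arrays, quantile normalization turned miR-1 minus miR-133a to 1.12 (heart) and 0.80 (soleus), miR-1 minus miR-133a* to 0.95 (soleus) and miR-133a minus miR-133b to -0.80 (soleus), and leaving out the 8 arrays turned miR-133a minus miR-133b to 0.062 (heart).

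Leaving out 1 rat gave -0.40 to 0.29 for miR-133a and -0.19 to 0.12 for miR-133a* in the interseptum. For perfusion in the atrium the ranges were -0.067 to 0.12 (miR-1), -0.035 to 0.12 (miR-133a), -9.83e-05 to 0.25 (miR-133a*) and -0.096 to 0.061 (miR-133b), and in the septum -0.033 to 0.12, -0.017 to 0.18, -0.015 to 0.22 and -0.010 to 0.10. Within arrays they were -0.37 to 0.073 (miR-1 minus miR-133a) and -0.31 to 0.081 (miR-133a minus miR-133b) for heart, and -0.022 to 0.049 (miR-133a minus miR-133b) and -0.21 to 0.0063 (miR-133a* minus miR-133b) for soleus. Within-array soleus tests could not reach 0.05 without 1 rat or the 8 arrays.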
